A study of Bos taurus with 31 samples.

Results

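Liver mRNA of 9 genes of the citric acid cycle was compared between 4 feeding groups of dairy cows. The genes were CS (ENSBTAG00000004371), IDH2 (ENSBTAG00000014093), IDH3A (ENSBTAG00000006227), IDH3B (ENSBTAG00000018813), OGDH (ENSBTAG00000006029), SUCLG1 (ENSBTAG00000006075), SUCLG2 (ENSBTAG00000009541), FH (ENSBTAG00000021688) and MDH2 (ENSBTAG00000009462). They were found by symbol among the 24616 genes of the deposited raw count matrix, and each symbol stood in 1 row. All 9 reached the minimum of 20 reads over the whole series that admitted 15916 genes to the tests.

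The animals were lactating German Holstein cows. Each gave 1 mRNA library, made from total RNA of a liver puncture biopsy taken at the end of the feeding trial. CON cows received a control ration, and GLY cows a ration with peas, wheat grain and straw from plants sprayed with a glyphosate (GLY) formulation before harvest. Both rations were fed with a high (HC) or a low (LC) concentrate feed proportion (CFP), which gave CONHC (8 cows), CONLC (8), GLYHC (8) and GLYLC (7, since samples of 1 cow were lost). The intake of glyphosate was low but not nil in CON cows. All 4 rations held maize silage, grass silage and straw, and a higher CFP therefore went with less silage. Ages of the single cows were not used here.

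The citric acid cycle runs in the mitochondrial matrix. It joins acetyl-CoA to oxaloacetate, oxidises the product stepwise, and hands the electrons to the respiratory chain. In the ruminant liver it also carries propionate from rumen fermentation, which enters as succinyl-CoA and leaves as malate or oxaloacetate for glucose synthesis. In cycle order, CS encodes citrate synthase, IDH2 the NADP-dependent mitochondrial isocitrate dehydrogenase, and IDH3A and IDH3B the catalytic and a regulatory subunit of the NAD-dependent enzyme. OGDH is the first component of the 2-oxoglutarate dehydrogenase complex. SUCLG1 is the shared alpha subunit of succinyl-CoA ligase and SUCLG2 its GDP-specific beta subunit, while FH (fumarase) and MDH2 (mitochondrial malate dehydrogenase) close the cycle.

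The libraries held 11675775 to 36675542 counted reads (median 19781078). The least abundant member, IDH3A, had 56 reads in its lowest library and 287 in its highest, whereas SUCLG2 had 4037 to 13228. Hepatocyte markers were high in every library, since albumin (ALB) alone ranged from 42900 to 146840 CPM (read counts scaled to a common library size after TMM normalization). A list of 17 skeletal muscle genes, chosen after the data were seen, summed to a median of 111 CPM and to over 1000 CPM in 5 libraries: CONHC cow 123, CONLC cows 103 and 166, GLYHC cow 127 and GLYLC cow 912. GLYLC cow 912 also had the highest sum of the intestinal epithelium list (560 CPM, median over all cows 93.2) and the lowest sum of hepatocyte markers. In cow 912, DES, which smooth muscle also expresses, made up 509 of the 1013 CPM of the muscle list, and its ACTA1 (79.6 CPM) and MYH7 (63.0 CPM) were below those of GLYLC cow 905 (93.7 and 86.6 CPM), which had a sum of 717 CPM. HC against LC values without these 5 libraries are also given for all members except IDH3B. The IDH3A value is given only where the dependence on processing is described. In bulk tissue, a smaller share of a cell type and less RNA per cell cannot be told apart.

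**Figure D1:**
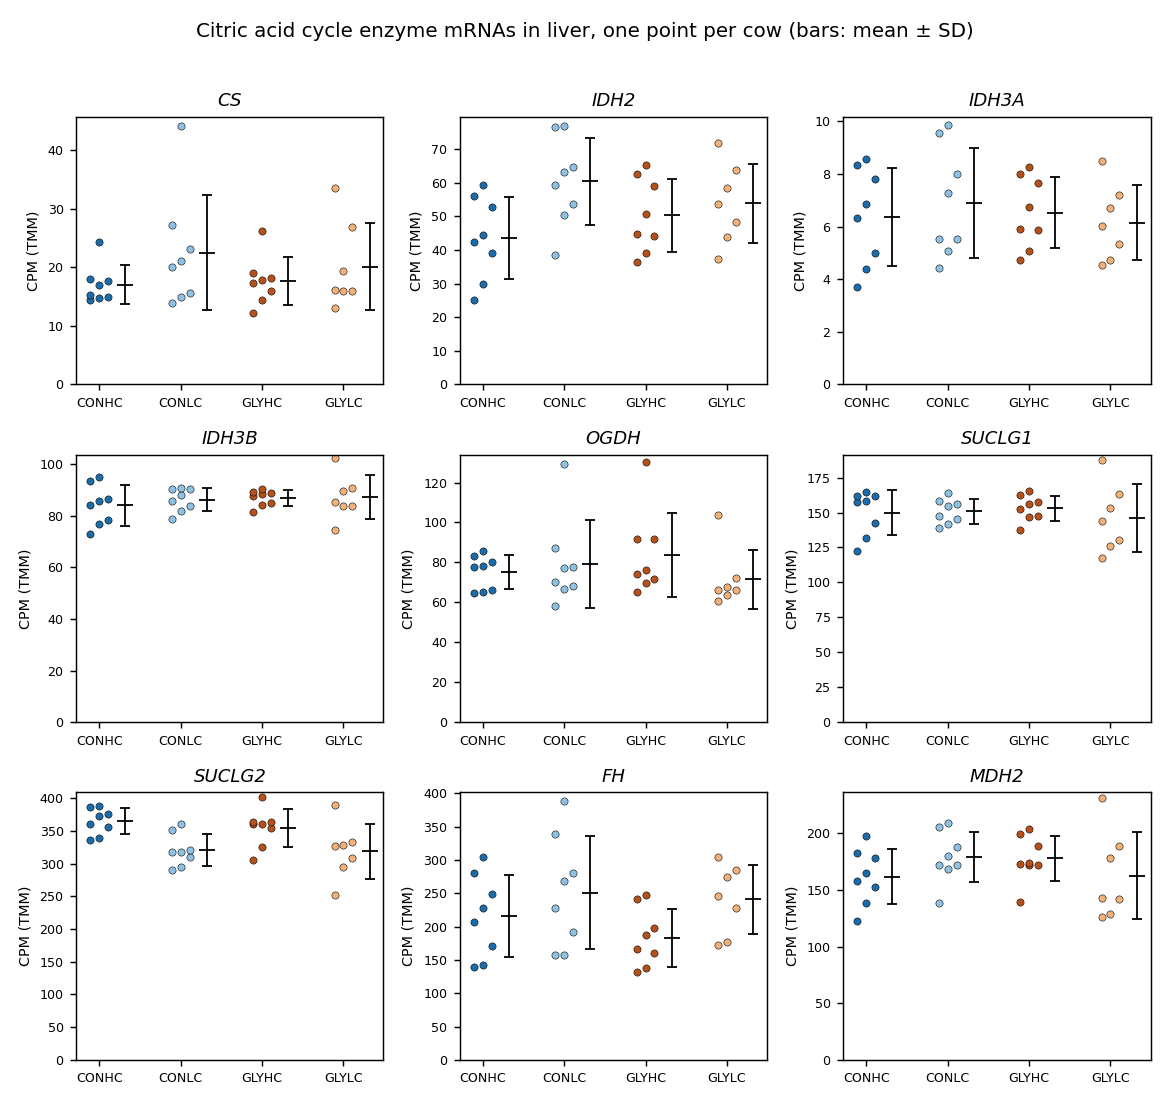
Level of each enzyme mRNA (CPM after TMM scaling, linear axis from 0) in every cow of the 4 feeding groups, with 1 point per cow and the group mean ± SD as a bar. The SUCLG2 points of both HC groups lie mostly above those of the LC groups (means 365 and 354 against 320 and 319 CPM), and 1 CONLC cow stands out in CS at 44.2 CPM.

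The first question was whether the CFP went with a difference in cycle enzyme mRNA. With all 31 cows in 1 model, HC cows had 12.5% more SUCLG2 mRNA than LC cows (95% interval 4.75% to 20.8%), and 18.3% less IDH2, 19.0% less FH and 18.7% less CS mRNA by point estimate. None of the 9 genes passed the call rule, which asked for p under 0.05 before and under 0.1 after Benjamini-Hochberg adjustment in the edgeR quasi-likelihood test. In the background of all genes tested, 1.45% (231 of 15916) were called in this comparison, 108 of them higher and 123 lower in HC cows. Among other cell types, the summed markers of macrophages and Kupffer cells had medians of 663 CPM in CONHC and 697 in GLYHC against 570.4 in CONLC and 545 in GLYLC, and those of stellate cells and fibroblasts 186 and 159 against 204 and 228. The hepatocyte sums had medians of 179493 CPM in CONHC and 155074 in GLYHC against 161135 in CONLC and 174589 in GLYLC, with opposite directions in CON and GLY cows. All groups overlapped in each of these sums, and the part of these shifts in the enzyme differences was not tested. At an unadjusted p under 0.05 alone, 3 of the 9 members were counted (SUCLG2 higher, IDH2 and FH lower), against 13.7% of all genes tested. The median log2 fold change was -0.02 over the members and -0.01 over all genes tested.

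Split by treatment, 0 of 9 members were called in CONHC against CONLC, where 0% of all genes were called, and 0 of 9 in GLYHC against GLYLC, where the background was 0.201%. At an unadjusted p under 0.05, SUCLG2 (higher) and IDH2 (lower) were counted in the CON cows (background 5.96%), and SUCLG2 (higher) in the GLY cows (background 12.5%). With DESeq2 in place of edgeR, which called 434 genes over all cows and 81 in CONHC against CONLC with only those 2 groups fitted, SUCLG2 was the 1 member called, over all cows (adjusted p = 0.0316) and in the latter fit (adjusted p = 0.0548, against 0.469 with all cows fitted), and 0 members were called in GLYHC against GLYLC. SUCLG2 is also in the list that the study drew for CONHC against CONLC from these same cows, so its direction there is not independent evidence.

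At the entry of the cycle, CS ranged from 14.4 to 24.4 CPM in CONHC (median 16.1), from 13.9 to 44.2 in CONLC (median 20.6), from 12.3 to 26.3 in GLYHC (median 17.6) and from 13.0 to 33.6 in GLYLC (median 16.1). The CONLC median was above that of CONHC, whereas the medians of the GLY groups lay closer together. In both pairs the LC group reached higher at the top. The highest cow of each group (CONHC 123, CONLC 166, GLYHC 127 and GLYLC 912) was among the 5 libraries above 1000 CPM of the muscle list. The log2 fold change of HC against LC was -0.30 ± 0.15 (SE) over all cows, with an interval of -0.60 to 0.00 and an edgeR quasi-likelihood Benjamini-Hochberg adjusted p of 0.366. It was -0.40 ± 0.21 in CON cows and -0.19 ± 0.21 in GLY cows. With 1 cow left out, the GLY value ranged from -0.29 to -0.018. Without CONLC cow 166, the cow with the most CS mRNA, the CON value was -0.19, and without the 5 libraries above 1000 CPM of the muscle list the value over all cows was -0.15.

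IDH2 gives NADPH in the matrix, unlike the NAD-dependent enzyme. Its level was 25.1 to 59.3 CPM in CONHC (median 43.4) and 38.4 to 77.0 in CONLC (median 61.3). It was 36.4 to 65.1 in GLYHC (median 47.7) and 37.4 to 71.7 in GLYLC (median 53.5). In CON cows, 5 of the 8 CONLC values lay above the highest CONHC value, whereas both GLY groups covered nearly the same range. HC differed from LC by a log2 fold change of -0.47 ± 0.17 in CON cows (interval -0.81 to -0.13, edgeR Benjamini-Hochberg adjusted p = 0.671) and -0.10 ± 0.17 in GLY cows (interval -0.45 to 0.25). The difference between these 2 values, tested as the interaction of GLY with CFP, was 0.37 ± 0.24 (interval -0.12 to 0.86), so that a different CFP effect in CON and GLY cows is not shown. Over all cows the value was -0.29 ± 0.12 (edgeR adjusted p = 0.274) and -0.36 (adjusted p = 0.282) without the 5 libraries.

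The subunits of the NAD-dependent isocitrate dehydrogenase had point estimates closer to no difference between HC and LC over all cows. IDH3A lay between 3.69 and 9.87 CPM over all cows and had group medians of 6.59 in CONHC, 6.39 in CONLC, 6.33 in GLYHC and 6.02 in GLYLC. IDH3B lay between 72.9 and 102 CPM with group medians of 85.0, 86.9, 88.0 and 85.5 CPM. The groups overlapped in both genes, and IDH3B spread least in GLYHC (81.3 to 90.5 CPM) and most in GLYLC (74.6 to 102 CPM). Over all cows, HC differed from LC by a log2 fold change of -0.02 ± 0.13 for IDH3A (interval -0.30 to 0.25) and -0.02 ± 0.04 for IDH3B (interval -0.11 to 0.07). In percent, the interval ran from -7.31% to 4.74% for IDH3B and from -18.5% to 18.8% for IDH3A. The IDH3A interval thus includes the point estimate of IDH2 (-18.3%), and a difference of that size is not excluded for IDH3A.

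OGDH, which feeds succinyl-CoA into the cycle, was 64.8 to 85.8 CPM in CONHC (median 77.9) and 58.2 to 129 in CONLC (median 73.6). In the GLY groups it was 65.4 to 130 CPM in GLYHC (median 75.1) and 60.6 to 104 in GLYLC (median 66.3). In each of CONLC, GLYHC and GLYLC, 1 cow lay far above the others, and the remaining cows overlapped. For HC against LC it differed by 0.07 ± 0.11 (log2) over all cows (interval -0.14 to 0.29), -0.08 ± 0.14 in CON cows and 0.23 ± 0.15 in GLY cows, with none called. Without the 5 libraries, which include the highest GLYLC cow, the values were 0.12, -0.088 and 0.32.

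At succinyl-CoA ligase, SUCLG2 had the smallest p of the 9 members in HC against LC over all cows. SUCLG2 was 336 to 388 CPM in CONHC (median 367) and 290 to 360 in CONLC (median 318). It was 305 to 401 CPM in GLYHC (median 360) and 252 to 390 in GLYLC (median 327). In CON cows, 6 of 8 CONLC values lay below the lowest CONHC value. In GLY cows the ranges overlapped more, because GLYLC cow 209 reached 390 CPM, but the other GLYLC cows lay at or below 333 CPM and 6 of 8 GLYHC cows above it. Over all cows its log2 fold change of HC against LC was 0.17 ± 0.05 (interval 0.07 to 0.27). It ranked 284 of 15916 genes by p and had an edgeR Benjamini-Hochberg adjusted p of 0.112. The values were 0.19 ± 0.07 in CON cows (edgeR adjusted p = 0.731) and 0.15 ± 0.07 in GLY cows (adjusted p = 0.396). The interaction was -0.04 ± 0.10 (interval -0.24 to 0.17). Without the 5 libraries, among them GLYLC cow 912 with the lowest SUCLG2 level of all cows, the values were 0.13 over all cows (adjusted p = 0.365), 0.16 in CON cows and 0.09 in GLY cows.

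SUCLG1, the partner subunit, was 122 to 164 CPM in CONHC (median 158) and 139 to 164 in CONLC (median 151). It was 138 to 165 CPM in GLYHC (median 154) and 117 to 188 in GLYLC (median 144). The groups overlapped throughout. Its log2 fold change of HC against LC was 0.03 ± 0.06 over all cows (interval -0.09 to 0.14) and -0.025 without the 5 libraries. The reads of SUCLG2 per read of SUCLG1 in the same library, which do not depend on library size, were 2.45 ± 0.251 in CONHC (SD, n = 8), 2.13 ± 0.230 in CONLC (n = 8), 2.31 ± 0.143 in GLYHC (n = 8) and 2.20 ± 0.218 in GLYLC (n = 7). On the log2 scale the CONHC ratio was 0.20 above that of CONLC (exact two-sided permutation test, p = 0.0183, Benjamini-Hochberg adjusted p = 0.147 over 8 tests). Since the study listed SUCLG2 for CONHC against CONLC from these same cows, the ratio there is not independent evidence. In GLY cows the difference was 0.07 (exact two-sided permutation test, p = 0.241, adjusted p = 0.643). Without the 5 libraries these differences were 0.23 (exact permutation test, adjusted p = 0.275) and 0.075 (adjusted p = 0.687). The corresponding ratio of IDH3A to IDH3B gave exact two-sided permutation p-values from 0.512 to 0.922 in the 4 comparisons. Transcript lengths were not used here, so the ratios compare cows and not the subunits with each other.

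**Figure D2:**
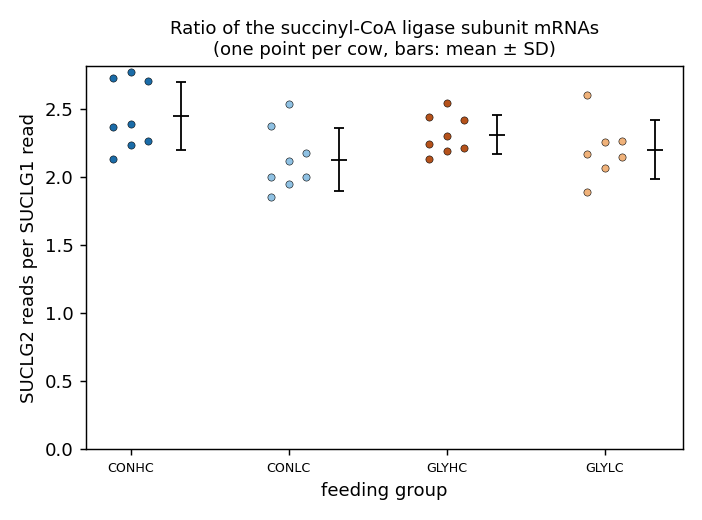
Reads of SUCLG2 per read of SUCLG1 in each cow (linear axis from 0) by feeding group, with 1 point per cow and the mean ± SD as a bar. The CONHC mean of 2.45 is the highest and the CONLC mean of 2.13 the lowest, and the points of all groups overlap.

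In the last part of the cycle, FH was 140 to 305 CPM in CONHC (median 218) and 157 to 388 in CONLC (median 248). It was 132 to 247 CPM in GLYHC (median 177) and 172 to 305 in GLYLC (median 246). The CON groups overlapped over most of their range, and 4 of 8 GLYHC cows lay below the lowest GLYLC cow. HC cows differed from LC cows by -0.30 ± 0.14 on the log2 scale (interval -0.58 to -0.03, edgeR Benjamini-Hochberg adjusted p = 0.308), with -0.22 ± 0.19 in CON cows and -0.39 ± 0.20 in GLY cows. It was -0.40 (adjusted p = 0.286) over all cows without the 5 libraries.

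MDH2 was 122 to 198 CPM in CONHC (median 161), 139 to 209 in CONLC (median 176), 140 to 204 in GLYHC (median 173) and 126 to 231 in GLYLC (median 143). The CONLC median was above that of CONHC and the GLYLC median below that of GLYHC, with wide overlap in both pairs. The log2 fold change of HC against LC was -0.15 ± 0.11 in CON cows and 0.13 ± 0.12 in GLY cows, and their difference was 0.28 ± 0.16 (interval -0.06 to 0.61). Without the 5 libraries these were -0.21, 0.072 and 0.28.

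**Figure D3:**
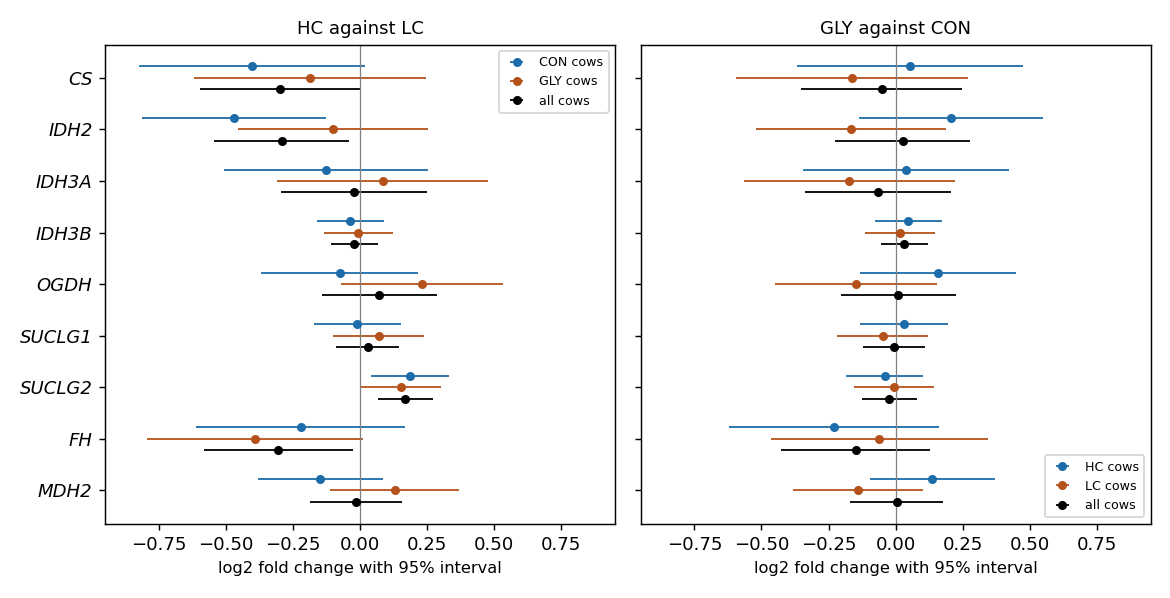
Log2 fold change with its 95% interval (edgeR quasi-likelihood fit) for each enzyme, left for HC against LC in CON cows, GLY cows and all cows, and right for GLY against CON in HC cows, LC cows and all cows. In the left panel the SUCLG2 interval over all cows lies above 0 (0.07 to 0.27) and those of IDH2 and FH lie below 0, while in the right panel every interval includes 0.

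The second question was whether the GLY ration went with a difference. Over all cows, 0 of 9 members were called in GLY against CON, with 0% of all genes called and 3.92% at an unadjusted p under 0.05, where 0 members were counted. DESeq2 also called 0 members. The largest point estimate was that of FH, -0.15 ± 0.14 on the log2 scale (interval -0.43 to 0.13), followed by -0.06 ± 0.13 for IDH3A and -0.05 ± 0.15 for CS. The intervals were narrowest for IDH3B (-3.82% to 8.69% in GLY cows), SUCLG2 (-8.40% to 5.60%) and SUCLG1 (-8.19% to 7.81%). They were wider for CS (-21.6% to 18.7%) and FH (-25.6% to 9.38%). Without the 5 libraries, 0 members were called and the log2 values ran from -0.15 for FH to 0.062 for IDH3B.

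Within one CFP, 0 of 9 members were called in GLYHC against CONHC (background 0%) and 0 of 9 in GLYLC against CONLC (background 0.0628%). No member had an unadjusted p under 0.05 in either comparison, where 2.92% and 5.65% of all genes had one, and DESeq2 called 0 members in both. In HC cows, IDH2 was 0.21 ± 0.17, OGDH 0.16 ± 0.14 and MDH2 0.14 ± 0.11 higher on the log2 scale with GLY, and FH was -0.23 ± 0.19. In LC cows, IDH2 was -0.16 ± 0.17, OGDH -0.15 ± 0.15 and MDH2 -0.14 ± 0.12. The signs of IDH2, OGDH and MDH2 thus differed between HC and LC cows, also without the 5 libraries (0.21, 0.14 and 0.15 in HC cows, -0.19, -0.27 and -0.13 in LC cows). The 95% interval of each of these differences included 0, and in the interaction of GLY with CFP 0 of 9 members were called (background 0%), with 0 at an unadjusted p under 0.05 (background 4.21%) and 0 called by DESeq2. The median interaction over the members was 0.21, against 0.01 over all genes tested, and 7 of 9 members had a value above 0.

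The members differed widely in how much they varied among cows of the same group. The within-group SD of log2 CPM was 0.106 for IDH3B, 0.129 for SUCLG2 and 0.151 for SUCLG1, against a median of 0.229 over the 8541 genes with a median of at least 5 CPM. These 3 lay at percentiles 1.35, 5.54 and 13.2 of those genes. MDH2 (0.230) lay at the middle and OGDH (0.284) above it. CS (0.414), FH (0.404), IDH3A (0.383) and IDH2 (0.356) lay between percentiles 81.7 and 88.3. The highest CS level was 3.60 times the lowest over all cows, and the highest IDH3B level 1.40 times the lowest. Accordingly, the SE of the log2 fold change of HC against LC was 0.04 to 0.06 for IDH3B, SUCLG2 and SUCLG1 and 0.12 to 0.15 for IDH2, IDH3A, FH and CS.

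The 9 mRNAs did not vary as 1 unit across the 31 cows. Over their 36 pairs the median Pearson r of log2 CPM was 0.15, 5 pairs were above 0.5 and 10 below 0. All pairs share libraries and their scaling. A block of 4 genes stood together: SUCLG1 with MDH2 (r = 0.71, rho = 0.61, permutation p = 2e-05 and 0.000360), IDH2 with MDH2 (r = 0.70, rho = 0.66, permutation p = 1e-05, the smallest that 100000 permutations can give, and 7e-05), IDH3B with SUCLG1 (r = 0.62, rho = 0.39, permutation p = 0.000250 and 0.0294) and IDH3B with MDH2 (r = 0.58, rho = 0.55, permutation p = 0.000670 and 0.00158). Adjusted over the 36 pairs, the Pearson p-values of these 4 were between 0.000360 and 0.00603, and the Spearman p-values were 0.00648, 0.00252, 0.133 and 0.0142 in the same order. Without the 2 cows farthest from the median of the first gene, the r values were 0.65, 0.60, 0.42 and 0.40, and within the feeding groups (group means removed) they were 0.71, 0.73, 0.65 and 0.60. They were 0.78, 0.67, 0.56 and 0.53 without the 5 libraries. The other pairs of the block were weaker, with r = 0.49 for IDH2 with SUCLG1 (0.31 without the 2 cows) and r = 0.46 for IDH2 with IDH3B (0.20 without the 2 cows). Both were below SUCLG1 with SUCLG2 (r = 0.50), a pair that reaches outside the block, so its edge is not sharp.

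The fifth pair above 0.5 was CS with IDH3A (r = 0.56, rho = 0.55, permutation p = 0.000910 and 0.00145, adjusted p = 0.00655 and 0.0142). It was 0.46 without the 2 cows farthest from the CS median, 0.58 within groups and 0.34 without the 5 libraries above 1000 CPM of the muscle list. SUCLG2 correlated with its partner SUCLG1 (r = 0.50, rho = 0.43, permutation p = 0.00457 and 0.0167, adjusted p = 0.0274 and 0.0860), and r was 0.55 within groups, 0.37 without the 2 cows farthest from the SUCLG1 median and 0.28 without the 5 libraries. The lowest value was that of OGDH with FH (r = -0.43, rho = -0.34, permutation p = 0.0152 and 0.0654, adjusted p = 0.0549 and 0.235, r = -0.26 without the 2 cows farthest from the OGDH median).

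**Figure D4:**
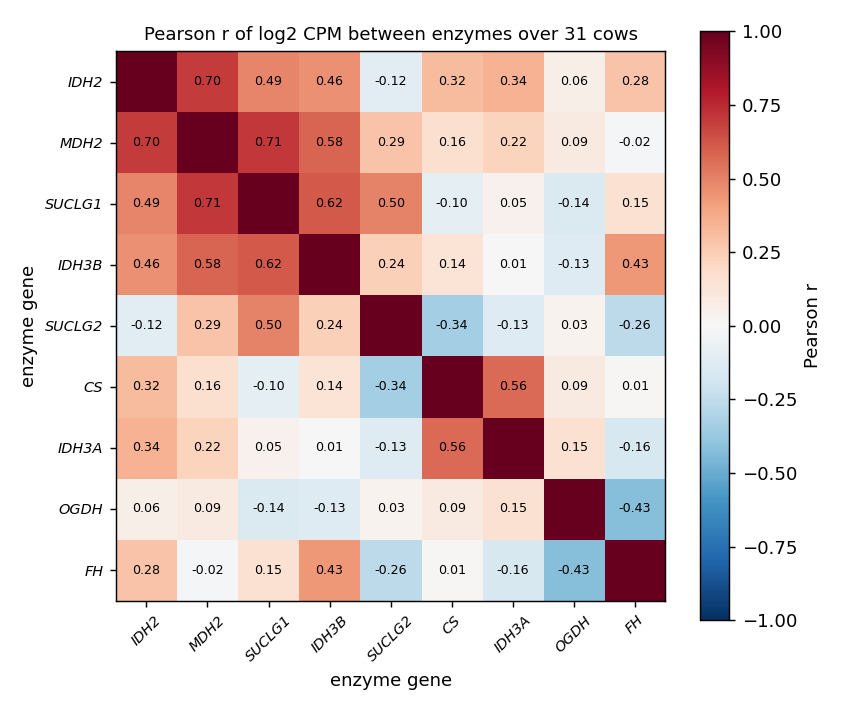
Pearson r of log2 CPM between the 9 enzymes over 31 cows, with the genes on both axes and colour from -1 (blue) to 1 (red). IDH2, MDH2, SUCLG1 and IDH3B have r from 0.46 to 0.71 with each other, SUCLG1 and SUCLG2 are at 0.50, CS pairs with IDH3A at 0.56, and OGDH and FH are at -0.43.

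Of the 8210 further genes with a symbol and a median of at least 5 CPM, those most like the mean of the 9 standardised members over the 31 cows were ATP5PB (r = 0.80), ATP5MC1 (0.78), SLC25A4 (0.78), ATP5PD (0.78) and PTGES2 (0.77). ATP5PB, ATP5MC1 and ATP5PD encode ATP synthase subunits, and SLC25A4 a mitochondrial ADP/ATP carrier. The genes most like SUCLG2 alone were PLCD4 (r = 0.81), CYP3A4 (0.77), ETFA (0.75), TTPA (0.74) and IVD (0.74). Group means were not removed, so these r values include differences between feeding groups. PLCD4 and the CYP3A4 row (ENSBTAG00000047379, uncharacterized in the paper) are, like SUCLG2, among the CFP-responsive genes of the paper. ETFA is a subunit of the electron transfer flavoprotein of fatty acid and amino acid oxidation, and IVD acts in leucine breakdown. For CS, a look made after the data were seen gave ATP2A2 (0.79), SUCLA2 (0.79), CFL2 (0.78), TUBA4A (0.77) and PLN (0.76). ATP2A2, CFL2 and PLN are strongly expressed in striated muscle, and SUCLA2 is the ATP-specific beta subunit of succinyl-CoA ligase. For MDH2, in the same later look, the highest was COX4I1 (0.85), a subunit of cytochrome c oxidase. These values are a description over the same libraries. They include the 5 libraries above 1000 CPM of the muscle list and are not given without them.

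CS was the member that moved most with the muscle list. The summed CPM of the 17 muscle genes ranged from 17.6 to 3173 in CONHC, from 21.0 to 6128 in CONLC, from 19.5 to 3673 in GLYHC and from 25.0 to 1013 in GLYLC. Of the defining genes, MYH7 (a slow myosin heavy chain) was at 0 reads in 1 cow and CKM (muscle creatine kinase) in 0 cows. CS correlated with log2 of that sum over the 31 cows (r = 0.61, permutation p = 0.000290, adjusted p = 0.00261 over 9 members, rho = 0.47, permutation p = 0.00818, adjusted p = 0.0736). Without the 2 cows farthest from the median sum, r was 0.45. It was 0.83 in CONHC, 0.80 in CONLC, 0.67 in GLYHC and 0.31 in GLYLC. In the 26 cows outside the 5 libraries r was 0.04, so the relation rests on those libraries. Their CS levels were 24.4, 27.2, 44.2, 26.3 and 33.6 CPM, against a median of 17.3 over all cows. Outside them, GLYLC cow 102 had 26.9 CPM of CS with a muscle sum of 80.1 CPM. For IDH3A, r was 0.43 (permutation p = 0.0156, adjusted p = 0.0700, rho = 0.39, permutation p = 0.0308, adjusted p = 0.139, r without the 2 cows 0.30), and for the other 7 members r lay between -0.21 and 0.29 with Pearson permutation p-values of at least 0.115. Outside the 5 libraries, r for IDH3A was 0.13. With the muscle sum as a covariate, HC against LC over all cows gave -0.28 for CS (edgeR adjusted p = 0.234) and 0.17 for SUCLG2 (adjusted p = 0.102). The part of muscle transcripts in the CS difference between groups was not otherwise tested.

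**Figure D5:**
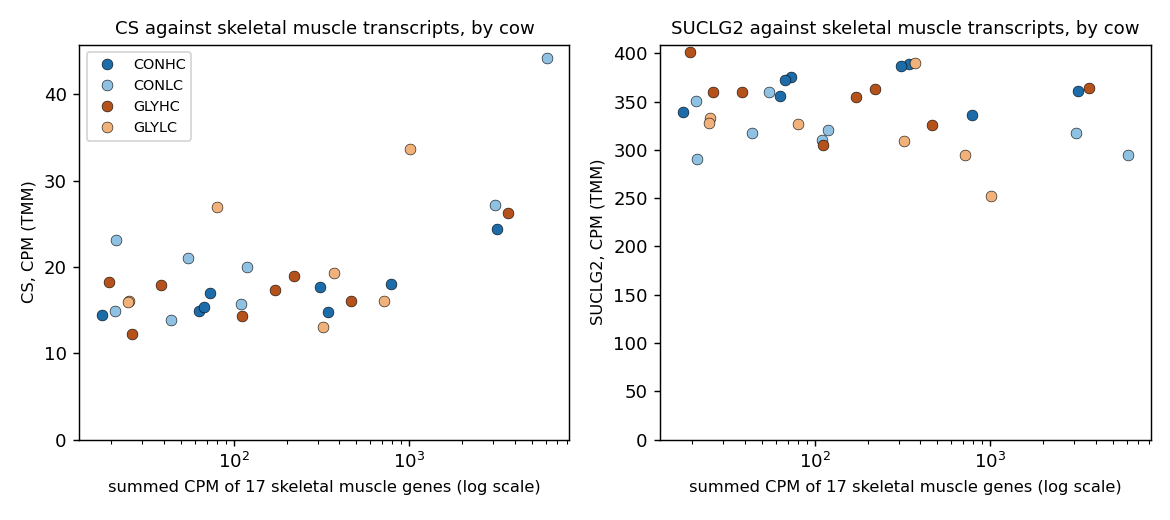
CS (left) and SUCLG2 (right) in CPM after TMM scaling on a linear axis from 0 against the summed CPM of 17 skeletal muscle genes on a log axis, with 1 point per cow coloured by feeding group. CS lies at 24.4 CPM or more in all 5 libraries above 1000 CPM of the muscle list, whereas SUCLG2 spans 252 to 364 CPM there. GLYLC cow 102, outside these libraries, has 26.9 CPM of CS.

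Around the members, genes of the same pathway were counted from lists chosen with earlier results known. In HC against LC over all cows (background 1.45%), 0 of 9 tested other cycle subunits, 1 of 5 cytosolic counterparts and citrate users, 0 of 12 genes of pyruvate entry, 0 of 14 of anaplerosis and cataplerosis, 0 of 7 mitochondrial carriers and 0 of 17 of mitochondrial content and biogenesis were called. The called gene was ME1, cytosolic malic enzyme, which yields NADPH for fat synthesis. It was 0.531 to 1.12 CPM in CONHC (median 0.887), 0.930 to 3.15 in CONLC (median 1.58), 0.286 to 1.36 in GLYHC (median 0.790) and 0.765 to 1.76 in GLYLC (median 1.17). It fell by 0.71 ± 0.19 on the log2 scale in HC cows (edgeR Benjamini-Hochberg adjusted p = 0.0768), at a low level of reads. The call was lost without the 5 libraries (-0.61, adjusted p = 0.209) and in 9 of 31 fits that left out 1 cow. All 5 genes of that list had a value below 0, with a median of -0.10, against 8598 of all 15916 genes tested (median -0.01). The genes of a list share libraries. Below the threshold were SDHA, the catalytic subunit of succinate dehydrogenase (0.19 ± 0.07, adjusted p = 0.222), PDP2, a pyruvate dehydrogenase phosphatase (0.36 ± 0.14, adjusted p = 0.230), VDAC3, a channel of the outer mitochondrial membrane (-0.14 ± 0.06, adjusted p = 0.271), and, of the same list as VDAC3, LONP1, a protease of the matrix (0.14 ± 0.07, adjusted p = 0.362).

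In GLY against CON over all cows (background 0%), 0 genes of the 6 lists were called. The smallest p-values were those of ACLY, which splits citrate in the cytosol (-0.30 ± 0.10, edgeR Benjamini-Hochberg adjusted p = 0.866), PC, pyruvate carboxylase (0.36 ± 0.15), SLC25A15, the ornithine carrier (-0.27 ± 0.13) and PDK4, a pyruvate dehydrogenase kinase (-0.37 ± 0.18). In GLYLC against CONLC (background 0.0628%), 1 of 14 genes of anaplerosis and cataplerosis was called. This was GPT2, mitochondrial alanine aminotransferase, at 5.69 to 13.6 CPM in GLYLC (median 9.37) and 12.9 to 26.4 in CONLC (median 16.8). It fell by 0.88 ± 0.19 on the log2 scale (adjusted p = 0.0871), and the call was lost in 26 of 31 fits that left out 1 cow, among them the one without GLYLC cow 912 (-0.81, adjusted p = 1). In the remaining comparisons edgeR called 0 genes of the lists, while DESeq2 called GPT2 in the interaction of GLY with CFP (adjusted p = 0.00824) and in CONHC against CONLC (adjusted p = 0.0274). DESeq2 calls of list genes not named here were not examined.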

How the data were processed

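Per the study's methods, the authors used FastQC for quality control and Trim Galore for trimming, aligned reads to UMD3.1 with HISAT2 2.1.0 and counted unique reads per gene with HTSeq 0.8.0. The authors deposited these as raw counts, which were used here, and a table of counts divided by DESeq2 1.20.0 size factors, which was not used. Libraries were made with a stranded mRNA kit. Whether counting used strand is not given in the sources used here, so reads of overlapping antisense genes cannot be told apart.

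Columns were mapped to cows by the group and animal number in the labels. In R 4.3.3, edgeR 4.0.16 (TMM, quasi-likelihood F test) was fitted to the 15916 genes with at least 20 reads in all, once with the 4 group means and once with CFP and treatment as additive factors. Adjusted p-values are Benjamini-Hochberg over all genes tested. Calls needed p under 0.05 before and under 0.1 after adjustment, the thresholds of the study. SE was taken as |log2 fold change| over the root of the F statistic, and intervals are 95%. CPM values are TMM-scaled, and log2 CPM has a prior count of 2. Correlations used 100000 permutations, and the ratios all 12870 or 6435 regroupings. The exact and permutation tests are two-sided. Within-group chi-square per gene was at least 24.5 over the 105 pairs of cows within groups, so no library repeated another of its group. Pairs across groups were not compared. Each cow gave 1 library.

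All 9 members are named. Of each pathway list, at most the 2 genes with the smallest p in each all-cow comparison and every called gene are named. The members, lists and markers were chosen with earlier results of these data known. The muscle list and the fits without 5 libraries or with a muscle covariate were added after the data were seen. The other alternatives were RLE and upper-quartile scaling, no filter or filterByExpr, a robust fit, an adjusted p under 0.05, DESeq2 1.42.0, only the 2 compared groups, and each cow left out. The scripts were tested on simulated counts. OGDHL and SLC25A10 were not tested. Red blood cell sums (2 of 4 genes found) were at most 12.9 CPM, T and B lymphocyte sums 9.76 to 36.3, bile duct sums (4 of 5 found) 17.4 to 57.9, endothelium sums 215 to 392, macrophage and Kupffer cell sums 348 to 1026, stellate cell and fibroblast sums 91.9 to 2139 (the highest in CONLC cow 103) and epidermis sums 65.0 to 161 CPM, of which DSP gave 64.0 to 161.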

Additional observations from a re-analysis of the deposited data

Results flagged for a closer look

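In 5 of the 44 groups of values examined (9 members and 2 ratios in 4 feeding groups), 1 cow stood apart from the rest of its group by Dixon's test at the 95% level. Chance alone flags about 1 in 20 groups. For CS, CONHC cow 123 had 24.4 CPM where the next cow had 18.1, and CONLC cow 166 had 44.2 CPM where the next had 27.2. Both belong to the 5 libraries with over 1000 CPM of the skeletal muscle list (3173 and 6128 CPM), and over all cows CS correlated with that sum (r = 0.61), with r = 0.04 in the 26 cows outside these libraries.

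For OGDH, CONLC cow 169 had 129 CPM (next cow 87.4), GLYHC cow 32 had 130 CPM (next 91.6) and GLYLC cow 912 had 104 CPM (next 72.4). The muscle sums of cows 169 and 32 were 21.0 and 26.3 CPM, below the median of 111 over all cows. Cow 912 had 1013 CPM of the muscle list, of which 509 CPM were DES, and 206 CPM of FABP2, a gene of intestinal epithelium that was at 0 reads in 24 cows. What set these OGDH levels apart was not tested.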

How the results depend on the processing

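No paired analysis was possible because the animal numbers of the labels are not shared between groups. The count of 0 members called moved to 1 (SUCLG2) with DESeq2 in HC against LC over all cows (log2 fold change 0.17, adjusted p = 0.0316) and in CONHC against CONLC with only the 2 groups fitted (0.19, adjusted p = 0.0548). It was 0 under every other planned setting except when cows were left out of HC against LC, where it was 0 to 1. There SUCLG2 passed in 3 of 31 fits (without GLYHC cow 117, GLYLC cow 209 or CONLC cow 169), with adjusted p from 0.0520 to 0.175. Over all settings, the sign of 24 member values turned at least once, each with an unadjusted p of at least 0.449 when no cow was left out. Under settings that left out no single cow, 523 member values kept sign and call, 2 gained a call and 6 turned sign. The 6 were without the 5 libraries: SUCLG2 in GLYLC against CONLC (0.018), IDH3A (0.023) and SUCLG1 (-0.025) in HC against LC, and CS (0.0072), OGDH (-0.047) and SUCLG1 (0.0021) in GLY against CON. The IDH3A to IDH3B ratio turned with medians in CONHC against CONLC (0.093) and GLYHC against CONHC (-0.054), and in the latter also without the 5 libraries (-0.0062).

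With 1 cow left out, values that turned sign ranged as follows. In CONHC against CONLC, OGDH ranged from -0.13 to 0.060 and SUCLG1 from -0.030 to 0.027. In GLYHC against GLYLC, IDH3B ranged from -0.043 to 0.042. In GLYHC against CONHC, CS ranged from -0.054 to 0.14, IDH3A from -0.042 to 0.11 and SUCLG1 from -0.0066 to 0.052. In GLYLC against CONLC, CS ranged from -0.33 to 0.060, IDH3B from -0.026 to 0.057, SUCLG1 from -0.12 to 0.0041, SUCLG2 from -0.061 to 0.050 and FH from -0.14 to 0.057. In the interaction, CS ranged from -0.0031 to 0.38, IDH3B from -0.0078 to 0.078 and SUCLG2 from -0.089 to 0.024. In HC against LC, IDH3A ranged from -0.060 to 0.027, IDH3B from -0.039 to 5.09e-05 and MDH2 from -0.044 to 0.030. In GLY against CON, CS ranged from -0.12 to 0.058, IDH2 from -0.023 to 0.067, OGDH from -0.052 to 0.079, SUCLG1 from -0.036 to 0.020, SUCLG2 from -0.048 to 0.0019 and MDH2 from -0.036 to 0.034.

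Counts over all genes moved more. In HC against LC, 231 genes were called, 55 at an adjusted p under 0.05, 134 without a filter, 434 with DESeq2, 42 without the 5 libraries and 83 to 404 with 1 cow left out. In GLYHC against GLYLC, 32 were called, 66 with RLE scaling, 7 at an adjusted p under 0.05, 11 with filterByExpr, 8 with the robust fit, 143 with DESeq2 (87 on only the 2 groups), 0 with edgeR on only the 2 groups, 1 without the 5 libraries and 0 to 150 with 1 cow left out. In GLYLC against CONLC, 10 were called, 4 with DESeq2 (2 on only the 2 groups), 0 at an adjusted p under 0.05, with filterByExpr, the robust fit, edgeR on only the 2 groups or without the 5 libraries, and 0 to 41 with 1 cow left out. In CONHC against CONLC, 0 were called, 27 with DESeq2 (81 on only the 2 groups), 3 without the 5 libraries and 0 to 7 with 1 cow left out. In GLYHC against CONHC, 0 were called and 5 with DESeq2 on only the 2 groups. The cause was not tested. IDH3A had the fewest reads of the members, with as few as 56 in a library.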

Other observations

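GPT2, the mitochondrial alanine aminotransferase, is given here in the comparisons that the report leaves out. Its medians were 10.5 CPM in CONHC, 16.8 in CONLC, 14.0 in GLYHC and 9.37 in GLYLC. The log2 fold change of HC against LC was -0.79 ± 0.18 in CON cows (edgeR Benjamini-Hochberg adjusted p = 0.204) and 0.54 ± 0.19 in GLY cows (adjusted p = 0.236). The interaction of GLY with CFP was 1.33 ± 0.26 with an edgeR adjusted p of 0.251 and a DESeq2 adjusted p of 0.00824, where GPT2 was the 1 gene that DESeq2 called. It ranged from 1.23 to 1.43 when each cow was left out, and was 1.24 (adjusted p = 0.723) without the 5 libraries.

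In the interaction of GLY with CFP, 7 of 7 tested mitochondrial carriers had a value above 0 (median 0.32), as did 12 of 12 genes of pyruvate entry (median 0.10), 8 of 9 other cycle subunits (median 0.11), 12 of 14 genes of anaplerosis and cataplerosis (median 0.23), 5 of 5 cytosolic counterparts and citrate users (median 0.26) and 10 of 17 genes of mitochondrial content and biogenesis (median 0.05). Over all genes tested, 8224 of 15916 had a value above 0 (median 0.01). None of the list genes was called in it by edgeR, and the genes of a list share libraries and vary together. These counts are not given without the 5 libraries, among them GLYLC cow 912 with the lowest sum of hepatocyte markers. How far single cows carry the counts was not tested. The highest member value was 0.37 (IDH2) and the lowest -0.17 (FH).

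SUCLA2, the ATP-specific partner of SUCLG1, was highest in 4 of the 5 libraries above 1000 CPM of the muscle list, with 27.8 CPM in CONLC cow 166, 23.4 in GLYLC cow 912 and 19.1 in GLYHC cow 127. CONHC cow 123 lay between the latter 2, and the fifth library, CONLC cow 103, had 13.1 CPM.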
